A study of Chlorocebus sabaeus with 45 samples.

Results

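The late response to relocation was measured in whole blood of 15 juvenile male vervet monkeys (Chlorocebus sabaeus), by comparing the samples of day 14 (Tp4) with those of day 0 (Tp1) of the same animals. These 30 samples were chosen by their labelled day and paired by animal out of the 45 samples of the series, and the other 15 came from the same animals on day 3. All animals were wild-born on St. Kitts and came from different troops. On day 0 they were trapped, sedated with ketamine and xylazine and sampled in the field. On day 14 they had been housed singly in quarantine since that capture and were sedated with dexmedetomidine and midazolam. Place, housing, earlier blood draws and sedative changed together between the 2 days and no animal stayed in the field, so these cannot be told apart. The comparison covered every gene of the deposited tables, of which 18751 passed a filter on low values.

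Blood RNA collected in preservative tubes comes from all circulating cells at once. Reticulocytes, the young red cells released by the bone marrow, still hold messenger RNA for heme synthesis, the membrane skeleton and gas transport, and lose it as they mature. Neutrophils are short-lived cells of the innate defence whose number in blood can rise within minutes to hours of capture or exertion, when adrenaline and glucocorticoids move them from the vessel walls and the marrow. In bulk samples such as these, fewer cells of a type and less RNA per cell cannot be told apart. The libraries were depleted of ribosomal and globin RNA, so the globin values describe what was left after that step.

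The values are FPKM, the fragments on a gene scaled to its length and to all fragments on genes in the library, here divided by a scaling factor per library (TMM, the trimmed mean of M values). Between 14038868 and 31469337 fragments fell on genes in each of the 30 libraries, and the totals did not differ detectably between the days (two-sided exact sign-flip test over 15 animals, p = 0.346). The 20 most abundant genes took 10.8% ± 3.54 (SD, n = 15) of the fragments on day 0 and 23.1% ± 6.599 on day 14, more on day 14 in 14 of 15 animals (p = 0.000122 by the same test). The day 0 library of animal 9 and the day 14 library of animal 4 stood apart, with fragments on 30750 and 31400 genes, while the other 28 libraries held between 20006 and 26790. Without those 2 animals 6804 genes were called. Markers of the blood cell types were present in all 30 libraries, with lowest values of 319 FPKM for ALAS2 (erythroid), 27.2 for CSF3R (neutrophil), 47.3 for CD14 (monocyte), 74.5 for CD3G (T cell), 16.7 for MS4A1 (B cell) and 180.5 for PPBP (platelet).

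Among the gene lists described here, those of globins, red cell membrane, reticulocyte clearance, red cell gas transport, heme synthesis and erythroid transcription factors had the highest median changes between day 0 and day 14, and that of neutrophil surface genes the lowest. The lists of iron handling and the proteasome, also set up for red cells, had medians of 0.52 and 0.38, below that of the cytotoxic list (0.93). At an adjusted p under 0.05 (limma with the animal as a block, adjusted by Benjamini-Hochberg over all tested genes), 7541 genes were called, or 40.2% of those tested. Of these, 3917 (20.9%) were up-regulated and 3624 (19.3%) down-regulated. A change of at least 2-fold was called for 1662 genes (8.86%), 1174 up (6.26%) and 488 down (2.6%). Most changes were smaller than that: the median absolute log2 fold change of the called genes was 0.59, and 38.2% of them lay under 0.5. Hereafter log2 fold changes are given as day 14 minus day 0 on log2(FPKM + 0.1), ± standard error, with the adjusted p of that fit.

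How many genes counted as up or down turned on the scaling factors. After TMM the typical tested gene had a log2 fold change of −0.02 (median), and 51.9% of the called genes were up-regulated. On the FPKM as deposited that median was −0.36, with 1608 genes up and 8457 down, and of the changes of at least 2-fold 657 were up and 1486 down. With TMM but a pseudocount of 1 or 0.01 in place of 0.1, the 2-fold falls numbered 214 or 779. Changes are therefore given relative to the typical gene, and the median of a list changed its sign without TMM for the proteasome, monocyte, eosinophil and basophil, dendritic cell, interferon, clock and mitochondrial ribosome lists.

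RNA integrity moved with the day. The integrity number that the study lists for each sample was equal or higher on day 14 in every animal. With it as a covariate beside the animal in the 30 samples, limma called 0 genes (3257 at an unadjusted p under 0.05), while 98.1% of the genes called without it kept their sign, the median ratio of the log2 fold changes with and without it was 0.78, and the median standard error went from 0.14 to 0.25. With the 15 day 3 samples added to that fit, 4145 genes were called, 2446 up and 1699 down (1066 and 259 at least 2-fold), among them all 40 genes that stand below as the largest rises, the largest falls and the lowest p-values. With RNA integrity in the 30 samples but no term for the animal, 2274 genes were called, 1555 up and 719 down (978 and 137 at least 2-fold). Both of the latter fits were chosen after the data were seen and are called the RNA integrity fits hereafter. After a list's counts of rises and falls, the same counts follow in brackets without TMM, in the RNA integrity fit of all 45 samples and in that without the animal, in this order.

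**Figure D1:**
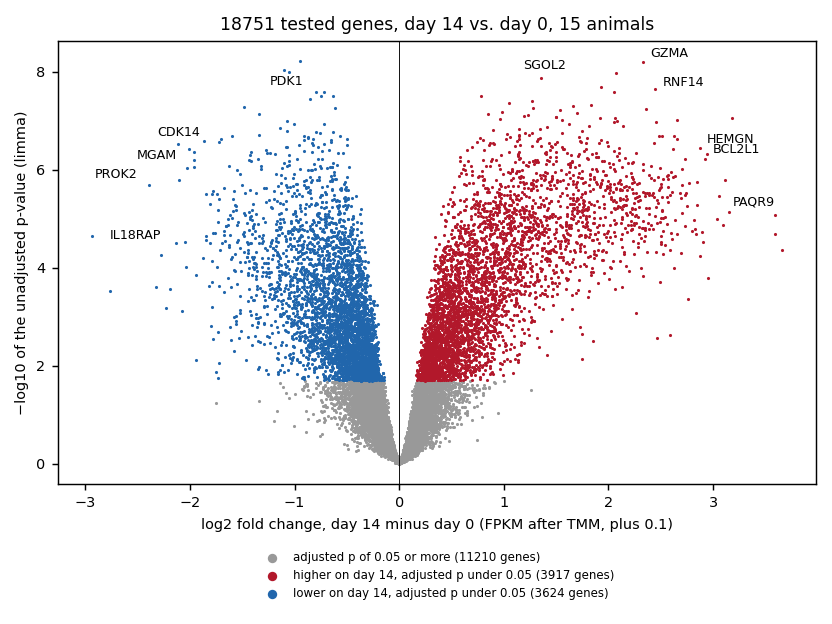
Each point is 1 of the 18751 tested genes, with its log2 fold change on day 14 vs. day 0 on the horizontal axis and −log10 of its unadjusted limma p-value on the vertical axis. The 3917 up-regulated genes (red) reach further from 0 than the 3624 down-regulated genes (blue), grey points are not called, and the labelled genes are described in the text.

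The 15 largest rises among genes with symbols, a mean of at least 5 CPM (fragments scaled to the library total only) and the same direction in at least 14 animals lay between log2 fold changes of 2.75 and 3.16. PAQR9, a membrane receptor of the progestin and adipoQ family, led with a log2 fold change of 3.16 ± 0.51, adjusted p = 0.0001603. Its values lay between 2.32 and 135 FPKM on day 0 (median 35.2) and between 64.1 and 1010.2 FPKM on day 14 (median 439), and 13 of the 15 day 14 samples were above the highest day 0 sample. SLC4A1, the band 3 anion exchanger that anchors the membrane to the skeleton, lay between 2.75 and 278 FPKM on day 0 (median 46.3) and between 66.01 and 2342 FPKM on day 14 (median 351). It was higher in 14 animals (3.09 ± 0.52, adjusted p = 0.000224), with 10 day 14 samples above the day 0 range.

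BCL2L1, which encodes the survival protein BCL-XL, was higher in all 15 animals (2.92 ± 0.39, adjusted p = 6.04e-05). It lay between 4.54 and 151 FPKM on day 0 (median 29.4) and between 60.7 and 1337 FPKM on day 14 (median 292), so that the groups overlapped in 3 day 14 samples. HEMGN, a nuclear protein of erythroid cells, lay between 7.45 and 352 FPKM on day 0 (median 26.4) and between 62.7 and 1243 FPKM on day 14 (median 233) and rose by 2.87 ± 0.37, adjusted p = 5.27e-05. Of its day 14 samples, 6 exceeded the day 0 maximum, which stood far above the day 0 median. SPTB (2.82 ± 0.49, adjusted p = 0.000249), a spectrin chain, is part of the lattice under the red cell membrane. ADD2, a cap of that lattice, rose by 3.06 ± 0.46, adjusted p = 0.000109, and EPB42, which links it to band 3, by 2.82 ± 0.47, adjusted p = 0.000198. SLC6A9, a transporter of glycine, the amino acid from which heme is built, rose by 2.75 ± 0.43, adjusted p = 0.000137.

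TMCC2 (3.11 ± 0.45, adjusted p = 8.14e-05), a membrane protein of the endoplasmic reticulum, and IFIT1B (3.04 ± 0.50, adjusted p = 0.0001896), a relative of the interferon-induced IFIT genes, were also in the leading group. IFIT1B was higher in 15 of 15 animals and reached 8269 FPKM on day 14 against a highest day 0 value of 1125. The E3 ubiquitin ligases TRIM58 (2.85 ± 0.45, adjusted p = 0.000135) and TRIM10 (2.85 ± 0.41, adjusted p = 8.49e-05) are known from late erythroblasts. ACSL6, an acyl-CoA synthetase, rose by 2.80 ± 0.48, adjusted p = 0.000259. The largest amounts of RNA among the 15 were those of GPX1, a glutathione peroxidase, which went from a median of 2104 to 19016 FPKM (2.77 ± 0.64, adjusted p = 0.00252). Without TMM all 15 were still called, with log2 fold changes between 2.34 and 2.73.

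**Figure D2:**
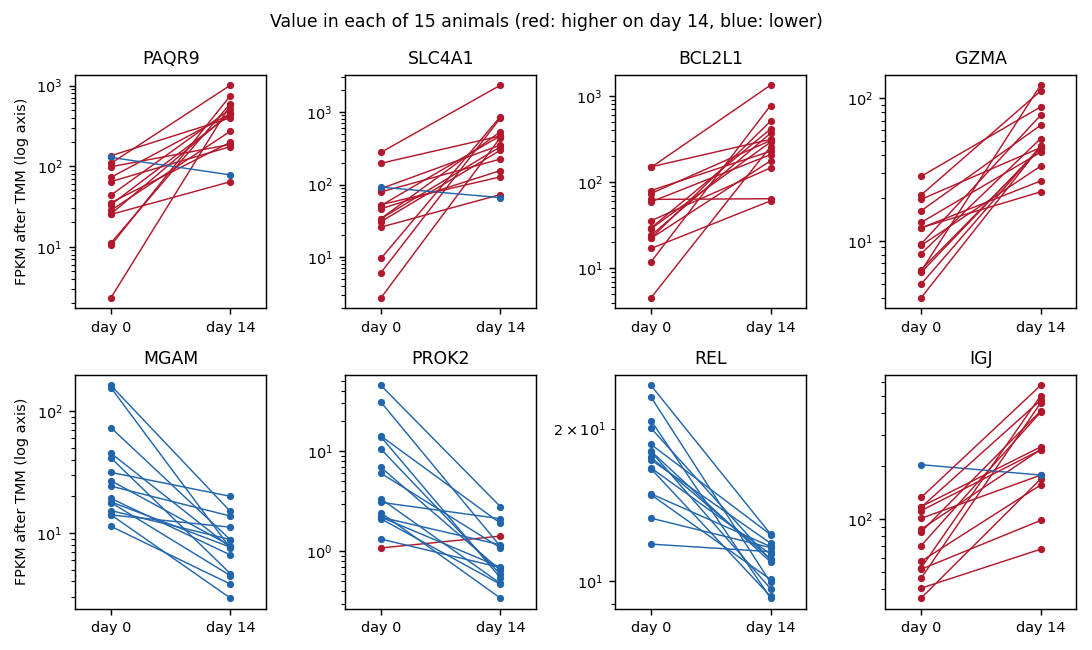
Each panel shows 1 gene, with a line from day 0 to day 14 for each of the 15 animals on a log axis of FPKM after TMM, red where the gene was higher on day 14 and blue where it was lower. PAQR9, SLC4A1, BCL2L1, GZMA and IGJ rose in 14 or 15 animals, and MGAM, PROK2 and REL fell in 14 or 15.

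Heme is made from glycine and succinyl-CoA in 8 enzymatic steps that start and end in the mitochondrion. Of the 15 tested genes on the heme list, 11 rose and 1 fell (without TMM 11 and 2, with RNA integrity 11 and 0, then 10 and 0), against 20.9% and 19.3% of all genes, and the median log2 fold change was 1.77 beside −0.02 for all genes. ALAS2, the erythroid form of the first and rate-limiting enzyme, lay between 319 and 19704 FPKM on day 0 (median 4062) and between 5885 and 54205 FPKM on day 14 (median 29914) and rose in 14 animals (2.59 ± 0.73, adjusted p = 0.00922). Its mitochondrial glycine importer SLC25A38 rose in all 15 animals, by 2.10 ± 0.28, adjusted p = 6.04e-05. In pathway order, ALAD (1.75 ± 0.26, adjusted p = 0.000105), UROS (1.79 ± 0.29, adjusted p = 0.000148) and UROD (2.05 ± 0.32, adjusted p = 0.000122) followed. CPOX, the sixth enzyme, differed by 0.13 ± 0.09, adjusted p = 0.273 and did not pass the threshold. PPOX (1.77 ± 0.27, adjusted p = 0.000123) and FECH (2.51 ± 0.40, adjusted p = 0.000151), which inserts the iron, did.

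ALAS1, the form of the first enzyme that other tissues use, was the member that fell (−0.37 ± 0.13, adjusted p = 0.0293), and it did so in 13 animals. The RNA of FLVCR1, the heme exporter, did not differ detectably (adjusted p = 0.994). Together the genes of the list took between 0.218% and 4.88% of all fragments on day 0 (median 1.52%) and between 2.37% and 9.13% on day 14 (median 5.58%). The share was higher on day 14 in 14 animals.

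The red cell membrane list joins the skeleton, the anion channel and the blood group carriers. It had 22 rises and 1 fall among 25 tested genes (without TMM 21 and 3, with RNA integrity 22 and 0, then 21 and 0), beside 20.9% and 19.3% of all genes. Its median log2 fold change was 2.16. Of the skeleton, ANK1 (2.16 ± 0.34, adjusted p = 0.000136), the ankyrin that ties spectrin to band 3, lay between 0.318 and 2.22 FPKM on day 0 (median 0.828) and between 0.714 and 25.5 FPKM on day 14 (median 5.102), and 13 of its day 14 samples lay above the day 0 range. EPB41, protein 4.1, rose in 15 animals (2.22 ± 0.36, adjusted p = 0.000167). TMOD1 (2.33 ± 0.39, adjusted p = 0.000202) and DMTN (1.96 ± 0.31, adjusted p = 0.000144) cap and bundle the short actin filaments of the lattice.

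Among the blood group carriers, ICAM4, the Landsteiner-Wiener antigen, rose by 2.64 ± 0.44, adjusted p = 0.000197, RHAG, which holds the Rh complex in the membrane, by 2.27 ± 0.38, adjusted p = 0.0002104, KEL, the Kell protease, by 2.06 ± 0.35, adjusted p = 0.000217 and ACKR1, the Duffy chemokine receptor, by 1.77 ± 0.27, adjusted p = 0.000101. AQP1 (2.56 ± 0.43, adjusted p = 0.000221), the water channel, and SLC14A1 (1.82 ± 0.32, adjusted p = 0.000306), the urea transporter of the Kidd group, rose as well. The fall was that of CD44 (−0.32 ± 0.13, adjusted p = 0.0496), an adhesion receptor that white cells also express, and its call was lost in 11 of the 15 fits that left out 1 animal. CD47, the signal against phagocytosis, differed by −0.17 ± 0.09, adjusted p = 0.123 and was not called.

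Of 16 tested genes for gas transport and red cell metabolism, 15 rose and 0 fell (without TMM 12 and 1, with RNA integrity 14 and 0, then 12 and 0), beside 20.9% and 19.3% of all genes. The carbonic anhydrases CA1 (2.32 ± 0.41, adjusted p = 0.000324) and CA2 (2.69 ± 0.41, adjusted p = 0.000114) turn carbon dioxide into bicarbonate. BPGM, which makes the 2,3-bisphosphoglycerate that loosens oxygen from hemoglobin, rose in 15 animals from a median of 261 to 1343 FPKM (2.26 ± 0.34, adjusted p = 0.000102). AHSP, the chaperone of free alpha-globin, lay between 5.41 and 237 FPKM on day 0 (median 54.99) and between 45.3 and 1226 FPKM on day 14 (median 558) (2.87 ± 0.55, adjusted p = 0.000572). EPOR, the erythropoietin receptor, was low but rose from a median of 0.3895 to 2.03 FPKM (1.82 ± 0.32, adjusted p = 0.000285), and the antioxidant PRDX2 rose by 2.52 ± 0.44, adjusted p = 0.000258.

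Of the members that handle glucose, the carrier SLC2A1 rose by 1.93 ± 0.28, adjusted p = 8.14e-05, hexokinase HK1 by 0.72 ± 0.17, adjusted p = 0.00239 and phosphofructokinase PFKM by 0.52 ± 0.15, adjusted p = 0.00946, while aldolase ALDOA differed by −0.24 ± 0.11, adjusted p = 0.0982 and was not called. All 5 tested globin genes rose (without TMM 5 and 0, with RNA integrity 5 and 0, then 4 and 0), beside 20.9% of all genes, with a median log2 fold change of 2.61. The rows that current RefSeq names (assembly mChlSab1.0.hap1) give as HBA and HBB rose by 2.84 ± 0.50, adjusted p = 0.000288 and 2.95 ± 0.62, adjusted p = 0.00119, and HBM, HBQ1 and HBZ by 2.49, 2.61 and 2.33. For HBB the values spread over 3 orders of magnitude, between 5.91 and 3528 FPKM on day 0 (median 42.7) and between 52.1 and 20327 FPKM on day 14 (median 390.4), and only 2 day 14 samples lay above the day 0 range. Alpha-globin genes are near-identical copies, and depletion removed an unknown share of all globin RNA, so these values are uncertain.

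Iron handling moved in part. Of 17 tested genes 9 rose and 1 fell (without TMM 5 and 5, with RNA integrity 6 and 1, then 4 and 1), beside 20.9% and 19.3% of all genes, with a median log2 fold change of 0.52. TFRC, the transferrin receptor, rose by 1.09 ± 0.18, adjusted p = 0.000158 and its relative TFR2, which pairs with the erythropoietin receptor, by 2.22 ± 0.35, adjusted p = 0.000149. NCOA4, which delivers ferritin for breakdown, rose in 15 animals (2.13 ± 0.39, adjusted p = 0.000422). Of the ferritin chains, FTL rose by 1.74 ± 0.58, adjusted p = 0.0226, while FTH1 differed by 0.51 ± 0.22, adjusted p = 0.0748 and was not called. The mitochondrial iron importer of red cells, SLC25A37, differed by 0.64 ± 0.31, adjusted p = 0.108 and the exporter ferroportin, SLC40A1, by −0.40 ± 0.19, adjusted p = 0.0929, and neither was called. SLC25A28, the importer of other cells, was the member that fell (−0.32 ± 0.11, adjusted p = 0.0265).

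Of 17 erythroid transcription factors 10 rose and 2 fell (without TMM 9 and 6, with RNA integrity 9 and 1, then 8 and 0), beside 20.9% and 19.3% of all genes. KLF1, which switches on adult globin and membrane genes, lay between 2.65 and 147 FPKM on day 0 (median 34.7) and between 52.3 and 618 FPKM on day 14 (median 243) (2.70 ± 0.51, adjusted p = 0.0005102). GATA1 (1.73 ± 0.32, adjusted p = 0.0004797), TAL1 (2.25 ± 0.36, adjusted p = 0.000149) and SOX6 (2.25 ± 0.34, adjusted p = 0.000115) rose in 14 animals each, and E2F2 in 15 (2.51 ± 0.31, adjusted p = 5.09e-05). FOXO3, which guards red cell precursors against oxidants, rose by 2.29 ± 0.36, adjusted p = 0.0001403. The 2 that fell were IKZF1 (−0.41 ± 0.09, adjusted p = 0.00148), which lymphocytes need, and LDB1 (−0.22 ± 0.06, adjusted p = 0.00657), a bridge between GATA1 complexes and enhancers. MYB, a factor of early progenitors, differed by −0.12 ± 0.13, adjusted p = 0.488, with a median of 1.49 FPKM on day 0 and 1.49 on day 14.

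Late red cell precursors discard their nucleus, mitochondria and ribosomes. Of 22 tested genes for ubiquitin transfer and organelle clearance in reticulocytes, 21 rose and 1 fell (without TMM 18 and 1, with RNA integrity 20 and 0, then 18 and 0), beside 20.9% and 19.3% of all genes. UBE2O, the ligase that strips ribosomes, lay between 2.29 and 20.8 FPKM on day 0 (median 6.48) and between 6.84 and 317 FPKM on day 14 (median 42.97) (2.57 ± 0.36, adjusted p = 7.59e-05). BNIP3L, the receptor that marks mitochondria for removal, rose in 15 animals from a median of 965 to 4638 FPKM (2.14 ± 0.40, adjusted p = 0.000495). RNF10 (2.47 ± 0.38, adjusted p = 0.000121), FBXO7 (2.0 ± 0.29, adjusted p = 9.01e-05) and XPO7 (1.88 ± 0.27, adjusted p = 8.35e-05) moved the same way. The autophagy kinase ULK1 was the member that fell (−0.58 ± 0.18, adjusted p = 0.0163). After TMM the median change of the list was above 0 in 14 of 15 animals and −0.33 in animal 13. The share of all fragments taken by these genes, without TMM, was higher on day 14 in 15 of 15 animals, with a median of 1.18% on day 0 and 5.25% on day 14.

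The proteasome, which degrades the tagged proteins, had 27 rises and 0 falls among 43 tested genes (without TMM 9 and 6, with RNA integrity 15 and 1, then 9 and 0), beside 20.9% and 19.3% of all genes. The median of this list was 0.38. PSME4 (1.63 ± 0.22, adjusted p = 6.6e-05), an activator cap, and the ATPase subunit PSMC2 (1.39 ± 0.20, adjusted p = 7.76e-05) rose in 15 animals. The direction of the proteasome list turned with the scaling, and its median was −0.04 without TMM.

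The 15 largest falls under the same limits on symbol, level and direction lay between log2 fold changes of −2.39 and −1.68. Genes with as large a fall in fewer than 14 animals, such as MMP8, which was lower in 12 of 15, are not among them. PROK2, a secreted peptide that neutrophils store, lay between 1.08 and 45.3 FPKM on day 0 (median 3.34) and between 0.341 and 2.79 FPKM on day 14 (median 0.693) (−2.39 ± 0.35, adjusted p = 8.74e-05). It was lower in 14 animals, and 8 day 14 samples were below the lowest day 0 sample. MGAM, an enzyme that splits starch and is also found on neutrophils, fell in all 15 animals (−1.96 ± 0.27, adjusted p = 6.53e-05) and lay between 11.3 and 163 FPKM on day 0 (median 24.3) and between 2.92 and 20.02 FPKM on day 14 (median 7.65). IL18RAP, the accessory chain of the interleukin 18 receptor, fell by 2.04 ± 0.37 on the log2 scale (adjusted p = 0.000369).

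For PROK2 and MGAM the ratio of the highest to the lowest sample was larger on day 0 than on day 14, and so it was for GCA. GCA, the calcium-binding grancalcin, lay between 45.2 and 1712 FPKM on day 0 (median 103) and between 13.2 and 129 FPKM on day 14 (median 40.7) (−1.94 ± 0.40, adjusted p = 0.00109). For TGFA, a growth factor that binds the EGF receptor, 12 of the day 14 samples were below the day 0 minimum (−1.79 ± 0.27, adjusted p = 0.000104). DYSF (−1.79 ± 0.35, adjusted p = 0.000663), the membrane repair protein dysferlin, SERPINA1 (−1.78 ± 0.27, adjusted p = 9.72e-05), the antitrypsin that inhibits neutrophil elastase, and CHI3L1 (−1.73 ± 0.27, adjusted p = 0.000119), a chitinase-like protein of granules, followed. PTGS2, the inducible cyclooxygenase, went from a median of 23.95 to 8.9 FPKM (−1.73 ± 0.29, adjusted p = 0.000207).

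ENTPD3 (−1.81 ± 0.33, adjusted p = 0.000374), an ectonucleotidase, TP53INP2 (−1.76 ± 0.31, adjusted p = 0.0002801), a regulator of autophagy, CDK14 (−1.72 ± 0.22, adjusted p = 5.09e-05), a cyclin-dependent kinase, LAMA5 (−1.71 ± 0.32, adjusted p = 0.000464), a laminin chain, GDA (−1.68 ± 0.30, adjusted p = 0.000295), guanine deaminase, and KCNJ15 (−1.68 ± 0.25, adjusted p = 9.25e-05), a potassium channel, completed the group. Of these, CDK14 had the lowest adjusted p, although only 3 of its day 14 samples lay below the day 0 range. Without TMM all 15 were called as well, with log2 fold changes between −2.78 and −2.07.

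Neutrophils find their target through receptors for chemokines and bacterial peptides. On the list of neutrophil surface and chemotaxis genes, 0 of 26 tested genes rose and 23 fell (without TMM 0 and 26, with RNA integrity 0 and 17, then 0 and 3), against 19.3% of all genes, with a median of −1.25. The interleukin 8 receptors CXCR1 (−1.52 ± 0.30, adjusted p = 0.000686) and CXCR2 (−1.25 ± 0.25, adjusted p = 0.000848) fell, and so did their ligand CXCL8 (−1.24 ± 0.28, adjusted p = 0.00209). CXCR2 lay between 48.1 and 572 FPKM on day 0 (median 157) and between 18.1 and 148 FPKM on day 14 (median 76.5). C5AR1, the receptor for complement C5a, fell in 15 of 15 animals (−1.43 ± 0.25, adjusted p = 0.000254), and so did CEACAM8 (−1.43 ± 0.21, adjusted p = 9.41e-05), an adhesion molecule of granulocytes. CSF3R (−1.05 ± 0.23, adjusted p = 0.001505), the receptor for granulocyte colony-stimulating factor, ALPL (−1.81 ± 0.28, adjusted p = 0.000134) and TREM1 (−1.25 ± 0.26, adjusted p = 0.00116) also fell.

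S100A8 and S100A9 form calprotectin, an abundant protein of the neutrophil cytosol. S100A9 lay between 683 and 33811 FPKM on day 0 (median 2096) and between 327 and 3274 FPKM on day 14 (median 1559) (−1.46 ± 0.49, adjusted p = 0.0233), and S100A8 differed by −0.89 ± 0.49, adjusted p = 0.157 and was not called. The list took a median of 0.932% of the fragments on day 0 and 0.376% on day 14. The highest day 0 sample had 3.75% and the highest day 14 sample 0.639%.

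Granule proteins are made earlier, in the marrow. Of 21 tested genes 0 rose and 8 fell (without TMM 0 and 12, with RNA integrity 0 and 3, then 0 and 1), beside 20.9% and 19.3% of all genes. The count dropped to 5 when animal 2, 7, 11 or 15 was left out and to 4 without the animal as a block. The median change of the list was above 0 in 5 animals and below 0 in 10. MMP8, the neutrophil collagenase, fell by 2.76 ± 0.62 on the log2 scale (adjusted p = 0.00187) and lay between 1.38 and 409.9 FPKM on day 0 (median 16.7) and between 0.362 and 8.73 FPKM on day 14 (median 2.84). BPI (−2.04 ± 0.41, adjusted p = 0.000827), LCN2 (−1.94 ± 0.65, adjusted p = 0.0231), PGLYRP1 (−1.72 ± 0.59, adjusted p = 0.0259) and MMP9 (−1.37 ± 0.35, adjusted p = 0.00497) fell too. For the azurophil granule genes, which are made first, MPO differed by −0.55 ± 0.36, adjusted p = 0.239, ELANE by −0.65 ± 0.39, adjusted p = 0.203 and DEFA1 by −0.76 ± 0.66, adjusted p = 0.384, and none of the 3 was called. DEFA1 had a day 0 maximum of 162 FPKM beside a median of 0.819.

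The NADPH oxidase makes the superoxide with which phagocytes kill microbes. Of its 6 tested subunits 0 rose and 3 fell (without TMM 0 and 6, with RNA integrity 0 and 3, then 0 and 0), beside 20.9% and 19.3% of all genes, with a median of −0.53. Those that fell included NCF1 (−1.0 ± 0.24, adjusted p = 0.00342) and NCF4 (−0.89 ± 0.23, adjusted p = 0.00485), which wait in the cytosol. The membrane subunit that RefSeq names CYBA differed by −0.22 ± 0.18, adjusted p = 0.346, with a median of 226 FPKM on day 0 and 230.1 on day 14, and was not called.

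The 10 lowest p-values among the eligible genes belonged to changes with the same sign in all 15 animals. GZMA, the granzyme of cytotoxic T and natural killer (NK) cells, lay between 3.99 and 28.4 FPKM on day 0 (median 9.52) and between 22.1 and 124 FPKM on day 14 (median 46.1) and rose in 15 animals (2.33 ± 0.23, adjusted p = 4e-05), with 13 day 14 samples above the day 0 range. RNF14 (2.45 ± 0.26, adjusted p = 4.2e-05), an E3 ubiquitin ligase, and PITHD1 (1.93 ± 0.20, adjusted p = 4.2e-05) rose in all 15 animals. SGOL2, shugoshin 2, which protects the cohesion of chromosomes, lay between 0.7601 and 1.79 FPKM on day 0 (median 1.02) and between 1.36 and 4.64 FPKM on day 14 (median 3.12) (1.36 ± 0.14, adjusted p = 4.12e-05). FAM204A (1.66 ± 0.19, adjusted p = 4.62e-05), the putative nuclease TATDN1 (1.27 ± 0.14, adjusted p = 4.62e-05) and the nuclear exporter XPO4 (1.05 ± 0.12, adjusted p = 4.62e-05) also rose in 15 animals.

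Of these 10 genes 3 fell, each in 15 animals and each with 14 of 15 day 14 samples below the day 0 minimum. PDK1, a kinase that turns pyruvate away from the mitochondrion, lay between 23.2 and 52.4 FPKM on day 0 (median 33.8) and between 12.9 and 26.9 FPKM on day 14 (median 19.2) (−0.79 ± 0.08, adjusted p = 4.2e-05). The transcription factors ZBED6 (−0.72 ± 0.08, adjusted p = 4.2e-05) and ZBTB18 (−0.63 ± 0.07, adjusted p = 4.2e-05) fell by less than 2-fold.

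In 15 genes the groups did not overlap at all, 2 higher on day 14 (0.0107% of tested genes) and 13 lower (0.0693%). They are named here after their values were seen. ZWILCH, a protein of the mitotic checkpoint, lay between 2.68 and 5.92 FPKM on day 0 and between 6.17 and 12.2 on day 14 (log2 fold change 0.97 ± 0.11). SLC2A3, the glucose carrier of white cells, went the other way, from between 108 and 746 FPKM to between 47.6 and 100.4 (−1.47 ± 0.22). ARID5B (−0.84 ± 0.11), ARHGAP24 (−1.41 ± 0.19), TNKS (−0.58 ± 0.08), FNDC3A (−0.41 ± 0.06), TSPYL4 (−0.52 ± 0.09) and FBXL22 (−1.08 ± 0.14) were lower in the same way, and the other 7 genes have no symbol in the files.

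NK cells and cytotoxic T cells kill by releasing perforin and granzymes. Of 23 tested genes on that list 17 rose and 0 fell (without TMM 12 and 0, with RNA integrity 16 and 0, then 5 and 0), beside 20.9% and 19.3% of all genes, with a median of 0.93. GZMB (1.52 ± 0.24, adjusted p = 0.000123) and GZMH (1.51 ± 0.22, adjusted p = 8.14e-05) rose in 14 animals, and GZMK, a granzyme of memory T cells, rose by 1.02 ± 0.16, adjusted p = 0.000144. The pore former PRF1 lay between 6.04 and 30.8 FPKM on day 0 (median 16.4) and between 16.8 and 85.6 FPKM on day 14 (median 34.0) (1.15 ± 0.18, adjusted p = 0.000153). Of the NK receptors, KLRF1 rose in 15 animals with 14 day 14 samples above the day 0 range (1.32 ± 0.17, adjusted p = 5.09e-05), and KLRD1 (1.14 ± 0.15, adjusted p = 5.55e-05), KLRB1 (1.14 ± 0.19, adjusted p = 0.000229) and KLRC1 (0.82 ± 0.15, adjusted p = 0.000439) rose as well. NCR1, the receptor that defines NK cells, differed by 0.44 ± 0.23, adjusted p = 0.1396 and GZMM by 0.09 ± 0.13, adjusted p = 0.608, and neither was called.

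The T cell list had 8 rises and 3 falls among 32 tested genes (without TMM 1 and 18, with RNA integrity 2 and 1, then 0 and 0). These counts were near or below the 20.9% and 19.3% of all genes, and their balance turned with the scaling. Without the animal as a block 5 rose and 2 fell. Of the receptor complex, CD3D rose by 0.61 ± 0.15, adjusted p = 0.00296, while CD3E (−0.16 ± 0.15, adjusted p = 0.406), CD3G (0.22 ± 0.11, adjusted p = 0.125) and CD247 (0.25 ± 0.11, adjusted p = 0.0716) were not called. The members that rose included CD8A (0.46 ± 0.10, adjusted p = 0.00186), the coreceptor of killer T cells, TBX21 (1.02 ± 0.13, adjusted p = 5.09e-05), the factor of type 1 and cytotoxic cells, and TIGIT (0.57 ± 0.13, adjusted p = 0.001701), an inhibitory receptor. LEF1 (−0.46 ± 0.09, adjusted p = 0.000771) and TCF7 (−0.46 ± 0.14, adjusted p = 0.0133), factors of naive T cells, fell. TBX21 lay between 2.34 and 8.69 FPKM on day 0 (median 5.11) and between 6.005 and 22.4 FPKM on day 14 (median 9.92), and 10 day 14 samples were above the day 0 range.

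B cells and their secreting descendants, the plasma cells, were described by separate lists. Of 20 tested B cell genes 0 rose and 6 fell (without TMM 0 and 18, with RNA integrity 0 and 2, then 0 and 0), beside 20.9% and 19.3% of all genes. The count of calls lay between 3 (without animal 1) and 10 (without animal 7) when 1 animal was left out in turn and moved by over 1.5 times without animal 1, 3, 5, 6, 7, 8, 9, 12 or 14. It was 3 without the filter on low values. EBF1 (−0.93 ± 0.24, adjusted p = 0.00497) and PAX5 (−0.91 ± 0.25, adjusted p = 0.00789), which fix the identity of B cells, fell in 12 animals each, and CD37 in 14 (−0.42 ± 0.08, adjusted p = 0.000642). The surface markers MS4A1 (−0.33 ± 0.18, adjusted p = 0.152) and CD79A (−0.39 ± 0.20, adjusted p = 0.129) were not called.

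Of 16 tested plasma cell genes 13 rose and 0 fell (without TMM 5 and 1, with RNA integrity 10 and 0, then 5 and 0), beside 20.9% and 19.3% of all genes. IGJ, the joining chain of secreted IgA and IgM, lay between 35.5 and 203 FPKM on day 0 (median 84.2) and between 67.2 and 571 FPKM on day 14 (median 247) (1.68 ± 0.23, adjusted p = 6.54e-05). TNFRSF17, the survival receptor BCMA, rose in 14 animals by 1.75 ± 0.25, adjusted p = 8.04e-05, and MZB1, a chaperone of antibody assembly, in 12 by 0.93 ± 0.18, adjusted p = 0.000599. The secretory genes TXNDC5 (0.87 ± 0.14, adjusted p = 0.000153), SSR4 (0.58 ± 0.12, adjusted p = 0.000826) and SEC11C (0.56 ± 0.12, adjusted p = 0.00101) rose, and these are used by other secreting cells too. XBP1 (0.18 ± 0.11, adjusted p = 0.219) and IRF4 (0.07 ± 0.16, adjusted p = 0.761), factors of plasma cell fate, were not called.

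**Figure D3:**
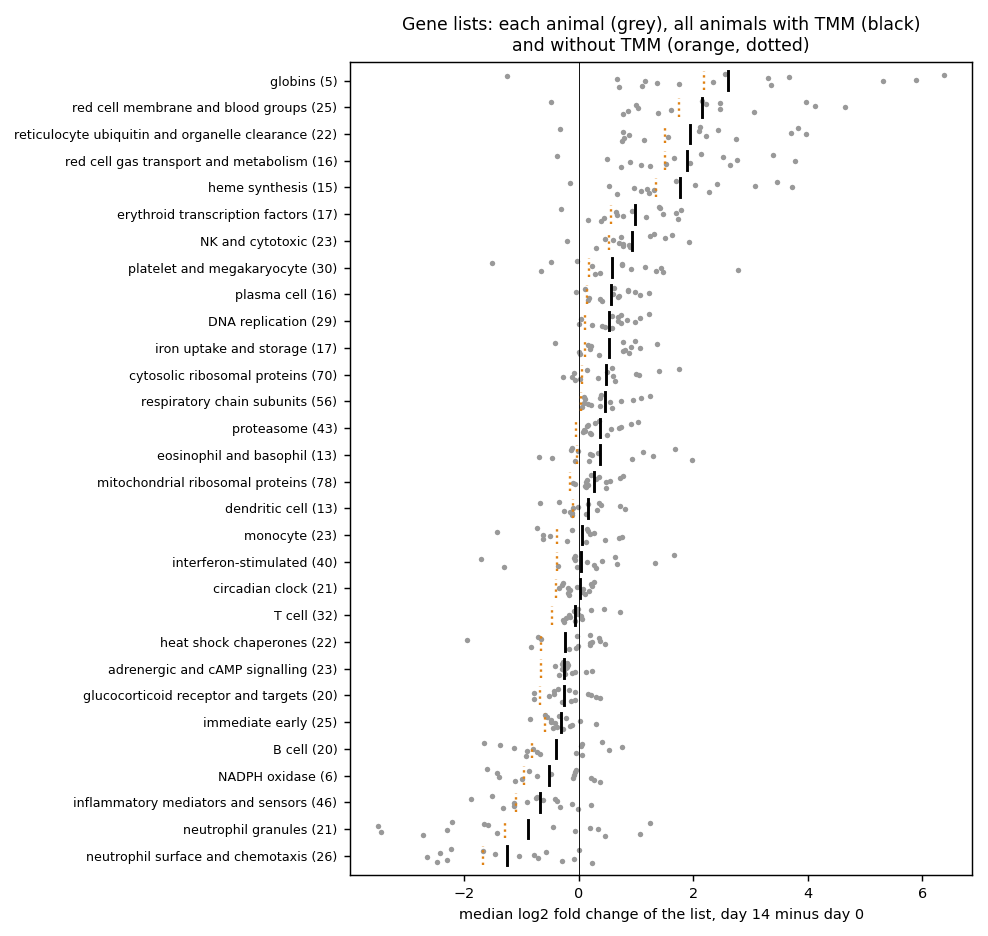
Each row is a gene list with its number of tested genes, and the horizontal axis is the median log2 fold change of the list on day 14 vs. day 0. Grey points are the 15 animals, black bars the medians over the fitted values with TMM, and dotted orange bars those without TMM. The 5 globin genes stand highest and the neutrophil surface list lowest, and the bars without TMM lie to the left of the black ones.

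Of 23 tested monocyte genes 4 rose and 7 fell (without TMM 2 and 11, with RNA integrity 2 and 3, then 0 and 0), beside 20.9% and 19.3% of all genes. Without the animal as a block 3 rose and 4 fell. The list's median turned from 0.05 to −0.38 without TMM. CD14 (−0.77 ± 0.16, adjusted p = 0.00126), VCAN (−0.70 ± 0.19, adjusted p = 0.00787) and CD163 (−0.60 ± 0.20, adjusted p = 0.0226), markers of classical monocytes and scavengers, fell, as did CLEC4D (−1.56 ± 0.40, adjusted p = 0.00463), a lectin that neutrophils also carry. CX3CR1 (0.91 ± 0.23, adjusted p = 0.00401) and TCF7L2 (0.42 ± 0.14, adjusted p = 0.0226), known from patrolling monocytes, rose with the complement chain C1QB (1.04 ± 0.24, adjusted p = 0.00219). CD300E, an activating receptor of monocytes, lay between 0.111 and 1.03 FPKM on day 0 (median 0.326) and between 0.324 and 3.02 FPKM on day 14 (median 1.42) (1.41 ± 0.18, adjusted p = 5.56e-05). CSF1R, the receptor that monocytes need to live, differed by 0.23 ± 0.12, adjusted p = 0.132, and was not called.

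Of 30 tested platelet and megakaryocyte genes 11 rose and 0 fell on day 14 (without TMM 3 and 2, with RNA integrity 6 and 0, then 0 and 0), beside 20.9% and 19.3% of all genes, with a median of 0.58. On day 3 vs. day 0, 26 of the 30 rose and 0 fell, beside 11.6% and 7.6% of all genes, and the median was 1.32. The day 14 count lay between 5 (without animal 3) and 16 (without animal 13), moved by over 1.5 times without animal 3, 5, 6, 7, 8, 9 or 11, and was 6 without the animal as a block or without the filter on low values. PPBP, the most abundant chemokine of platelet granules, lay between 180.5 and 3732 FPKM on day 0 (median 514) and between 327 and 2972 FPKM on day 14 (median 1265) (1.27 ± 0.33, adjusted p = 0.005301). CLEC1B, a receptor that activates platelets, rose by 1.45 ± 0.31, adjusted p = 0.00121 and MMRN1, a carrier of factor V, by 0.94 ± 0.27, adjusted p = 0.00959. The integrin chain ITGA2B differed by 0.82 ± 0.34, adjusted p = 0.0648 and was not called.

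Of 13 tested eosinophil and basophil genes 5 rose and 0 fell (without TMM 1 and 2, with RNA integrity 4 and 0, then 1 and 0), beside 20.9% and 19.3% of all genes, and without TMM the median turned from 0.37 to −0.03. The members that rose included CPA3 (1.03 ± 0.21, adjusted p = 0.00102), a carboxypeptidase of mast cells and basophils, and FCER1A (0.84 ± 0.22, adjusted p = 0.00535) and MS4A2 (0.73 ± 0.19, adjusted p = 0.00621), chains of the IgE receptor. Of 13 dendritic cell genes 4 rose and 2 fell (without TMM 0 and 5, with RNA integrity 1 and 0, then 1 and 0), beside 20.9% and 19.3% of all genes, and the median turned from 0.16 to −0.09 without TMM. The called count dropped to 3 without animal 1, 3, 9 or 14 and without the filter on low values. Of single members FLT3, the receptor for their growth factor, rose by 0.82 ± 0.23, adjusted p = 0.00887 and CIITA, which switches on class II antigen presentation, fell by 0.57 ± 0.17 on the log2 scale (adjusted p = 0.0141).

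Of 46 tested inflammatory mediators, receptors and signal carriers 1 rose and 35 fell (without TMM 0 and 40, with RNA integrity 1 and 27, then 0 and 9), against 20.9% and 19.3% of all genes, with a median of −0.67. REL, a subunit of NF-κB, lay between 11.8 and 24.3 FPKM on day 0 (median 17.6) and between 9.26 and 12.4 FPKM on day 14 (median 11.1) and fell in 15 animals (−0.67 ± 0.09, adjusted p = 5.44e-05), with 12 day 14 samples below the day 0 range. RELA (−0.58 ± 0.09, adjusted p = 0.000165), the main activating subunit, and NFKBIA (−0.52 ± 0.15, adjusted p = 0.01003), its inhibitor, fell too. TLR10, a Toll-like receptor, fell in 15 animals (−0.85 ± 0.12, adjusted p = 6.93e-05). IL1R2 (−0.85 ± 0.25, adjusted p = 0.0113), the decoy receptor for interleukin 1, fell in 13. The gene that rose was CCL3 (0.91 ± 0.23, adjusted p = 0.003899), a chemokine that cytotoxic cells release. After TMM the median change of the list was below 0 in 14 of 15 animals. Its share of all fragments, a scale without TMM on which the 20 most abundant genes took more on day 14, was lower on day 14 in 15 of 15. Across the animals the median change of the list lay between −1.88 and 0.22, and that of the neutrophil surface list between −2.66 and 0.24. The part of neutrophil RNA in the inflammatory falls was not tested.

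Of 40 tested genes induced by interferon 6 rose and 3 fell (without TMM 4 and 17, with RNA integrity 3 and 2, then 2 and 1), which are smaller shares than the 20.9% and 19.3% of all genes. Without TMM the direction of this list turned, with a median of −0.38 in place of 0.04. The members that rose included CMPK2 (2.42 ± 0.37, adjusted p = 0.000106) and RSAD2 (2.02 ± 0.41, adjusted p = 0.000849), which makes the antiviral nucleotide ddhCTP. CMPK2 lay between 2.098 and 40.4 FPKM on day 0 (median 9.91) and between 19.2 and 186 FPKM on day 14 (median 60.1) and was higher in 15 animals. IFI27 (0.90 ± 0.20, adjusted p = 0.00157) and OASL (0.79 ± 0.16, adjusted p = 0.00108) rose by less than 2-fold. SAMD9L (−0.72 ± 0.21, adjusted p = 0.0119) and IRF7 (−0.75 ± 0.24, adjusted p = 0.0177), the master factor of the type I response, fell. The count of calls was 14 without animal 11.

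Glucocorticoids act through the receptor NR3C1, which switches on targets such as FKBP5, TSC22D3 and PER1 within hours. Of 20 tested genes on this list 1 rose and 8 fell (without TMM 1 and 15, with RNA integrity 2 and 5, then 0 and 1), beside 20.9% and 19.3% of all genes. NR3C1 itself lay between 39.8 and 72.5 FPKM on day 0 (median 51.7) and between 31.6 and 47.7 FPKM on day 14 (median 42.8) (−0.38 ± 0.07, adjusted p = 0.000357). SGK1, a kinase among its targets, fell in 15 animals (−0.65 ± 0.11, adjusted p = 0.000307), and the phosphatase DUSP1 fell in 13 (−0.94 ± 0.25, adjusted p = 0.00597). FKBP5 differed by −0.10 ± 0.19, adjusted p = 0.708, TSC22D3 by −0.02 ± 0.13, adjusted p = 0.9001 and PER1 by 0.41 ± 0.18, adjusted p = 0.0813, and none of these 3 classical targets was called. The gene that rose was MT1X, a metallothionein (0.90 ± 0.14, adjusted p = 0.000145), one of a family of near-identical copies.

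Immediate early genes respond within minutes to activation of a cell. Of 25 tested genes 3 rose and 11 fell (without TMM 1 and 16, with RNA integrity 2 and 12, then 0 and 2), beside 20.9% and 19.3% of all genes, and the rises numbered 1 without the animal as a block or without the filter on low values. FOS (−0.95 ± 0.20, adjusted p = 0.00126), FOSL2 (−1.06 ± 0.18, adjusted p = 0.000258) and JUNB (−1.01 ± 0.24, adjusted p = 0.00275), subunits of the factor AP-1, and ZFP36 (−0.99 ± 0.16, adjusted p = 0.000158), which destroys inflammatory messages, fell. JUN differed by −0.37 ± 0.19, adjusted p = 0.129 and was not called. JUND, the subunit that is present at rest, rose and lay between 35.04 and 142 FPKM on day 0 (median 56.4) and between 53.2 and 226 FPKM on day 14 (median 133) (0.95 ± 0.23, adjusted p = 0.00309). The others that rose were NR4A1 (0.47 ± 0.16, adjusted p = 0.0235) and EGR1 (0.44 ± 0.17, adjusted p = 0.0438), both from day 0 medians under 1 FPKM. The call of EGR1 was lost in 10 of the 15 fits that left out 1 animal.

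Adrenaline acts on white cells through cyclic AMP. Of 23 tested genes of this pathway 1 rose and 9 fell (without TMM 1 and 17, with RNA integrity 1 and 4, then 1 and 1), beside 20.9% and 19.3% of all genes. PDE4B, which breaks cyclic AMP down, lay between 19.4 and 59.8 FPKM on day 0 (median 30.1) and between 14.3 and 34.1 FPKM on day 14 (median 16.8) and fell in 15 animals (−0.78 ± 0.10, adjusted p = 6.04e-05). The CREB coactivators CRTC1 (−0.49 ± 0.14, adjusted p = 0.009303), CRTC2 (−0.41 ± 0.11, adjusted p = 0.00909) and CRTC3 (−0.47 ± 0.10, adjusted p = 0.00154) and CREB1 itself (−0.31 ± 0.08, adjusted p = 0.00543) fell by less than 2-fold. GNAS, the stimulatory G protein, was the gene that rose, from a median of 79.5 to 372 FPKM (1.81 ± 0.30, adjusted p = 0.000176).

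Of 21 tested clock genes 4 rose and 3 fell (without TMM 0 and 11, with RNA integrity 3 and 2, then 0 and 1), which is no more than the 20.9% and 19.3% of all genes, and the median turned from 0.02 to −0.40 without TMM. ARNTL, which drives the positive limb of the clock as BMAL1, fell in 15 animals (−0.64 ± 0.09, adjusted p = 8.14e-05) and lay between 15.4 and 38.99 FPKM on day 0 (median 23.3) and between 12.03 and 19.3 FPKM on day 14 (median 15.1). PER2 (−0.44 ± 0.14, adjusted p = 0.0206) and the kinase CSNK1E (−0.87 ± 0.16, adjusted p = 0.000451) fell, while the repressor BHLHE40 rose (0.53 ± 0.12, adjusted p = 0.00158). CLOCK, the partner of ARNTL, differed by −0.22 ± 0.09, adjusted p = 0.0675. The hour of sampling is not given in the sources used here, and its part in these values was not tested.

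Of 22 tested chaperone genes 5 rose and 6 fell (without TMM 4 and 14, with RNA integrity 5 and 10, then 4 and 7), near the 20.9% and 19.3% of all genes. The stress-inducible HSPA1A lay between 2.57 and 139 FPKM on day 0 (median 6.85) and between 1.39 and 5.31 FPKM on day 14 (median 3.13) (−1.73 ± 0.38, adjusted p = 0.00159), and HSPA1B (−1.78 ± 0.52, adjusted p = 0.0105), HSPA6 (−1.30 ± 0.30, adjusted p = 0.00229) and DNAJB1 (−0.92 ± 0.32, adjusted p = 0.0274) fell with it. HSPA1A and HSPA1B are near-identical copies between which reads may be divided. Over the whole list animal 10 had the lowest median log2 change, −1.95. The members that rose were HSPA5 (0.81 ± 0.17, adjusted p = 0.000976), the chaperone of the endoplasmic reticulum, and the cochaperones DNAJB4 (1.43 ± 0.25, adjusted p = 0.000249), DNAJB2 (1.17 ± 0.21, adjusted p = 0.000369), DNAJB6 (1.27 ± 0.26, adjusted p = 0.000947) and DNAJA2 (0.62 ± 0.11, adjusted p = 0.0003904).

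Of 29 tested DNA replication genes 22 rose and 0 fell (without TMM 11 and 1, with RNA integrity 14 and 0, then 10 and 0), beside 20.9% and 19.3% of all genes. MCM2, a subunit of the replicative helicase, lay between 3.74 and 69.2 FPKM on day 0 (median 20.9) and between 22.9 and 298 FPKM on day 14 (median 124) (2.23 ± 0.38, adjusted p = 0.000251). Its partners MCM4 (1.09 ± 0.16, adjusted p = 8.04e-05) and MCM6 (1.43 ± 0.21, adjusted p = 8.37e-05), the origin binder ORC1 (2.19 ± 0.30, adjusted p = 6.14e-05) and TYMS (1.86 ± 0.27, adjusted p = 8.14e-05), which makes thymidylate, rose as well. PCNA, the sliding clamp, rose by 0.46 ± 0.10, adjusted p = 0.00169, and ORC2 differed by −0.10 ± 0.07, adjusted p = 0.278 and was not called.

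The lists of protein synthesis and respiration had rises and no falls, and most of these calls were lost without TMM and in the RNA integrity fits. Of 70 tested cytosolic ribosomal protein genes 40 rose and 0 fell (without TMM 14 and 0, with RNA integrity 10 and 0, then 1 and 0), beside 20.9% and 19.3% of all genes, with a median of 0.48. RPS24 (1.46 ± 0.21, adjusted p = 7.64e-05), RPL31 (1.13 ± 0.23, adjusted p = 0.000826) and RPL26 (1.1 ± 0.20, adjusted p = 0.000336) had some of the lowest p-values among them, and many of these genes have processed copies that can share reads. Of 78 mitochondrial ribosomal protein genes 43 rose and 0 fell (without TMM 4 and 7, with RNA integrity 16 and 0, then 9 and 0), beside the same shares of all genes, 20.9% and 19.3%. Without TMM the median turned from 0.27 to −0.16. MRPS36 rose by 1.81 ± 0.22, adjusted p = 5.09e-05.

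Of 56 respiratory chain subunits 41 rose and 0 fell (without TMM 15 and 3, with RNA integrity 14 and 0, then 11 and 0), beside 20.9% and 19.3% of all genes. ATP5E (2.01 ± 0.34, adjusted p = 0.000221) and ATP5J (1.44 ± 0.19, adjusted p = 5.85e-05) belong to the ATP synthase. NDUFA5 (1.15 ± 0.15, adjusted p = 5.09e-05) and NDUFB6 (0.92 ± 0.14, adjusted p = 0.000125), subunits of complex I, rose in 15 animals each, and NDUFB6 had 14 of its 15 day 14 samples above the day 0 range.

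The response was shared by most animals, and the animals that departed most from it were not the same for rises and falls. For each animal, the genes called at least 2-fold in the other 14 were taken, and the share that moved the same way in the animal left out was counted, as a description. For the up-regulated genes this share had a median of 95.8% and was 84.1% or more in 14 animals. In animal 13 it was 35.1%, and its median log2 change of these genes was −0.24.

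Animal 13 had the highest share of fragments on the heme list on day 0, 4.88%, and went down to 2.75% on day 14. For the down-regulated genes the share had a median of 90.5% and was lowest in animal 5, at 36.6%, followed by animal 1 at 65.2%. On the neutrophil surface list only animal 1 had a median change above 0, at 0.24, and animal 5 was at −0.08. The same animal 13 followed the falls, with 94.4%, and animal 5 the rises, with 96.7%. The falls were deepest in animals 11, 7, 2 and 15, in which the median change of the down-regulated genes lay between −2.46 and −2.01, while it lay between −1.35 and 0.22 in the others. Without animal 13, 7444 genes were called, and without animal 5, 7625.

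**Figure D4:**
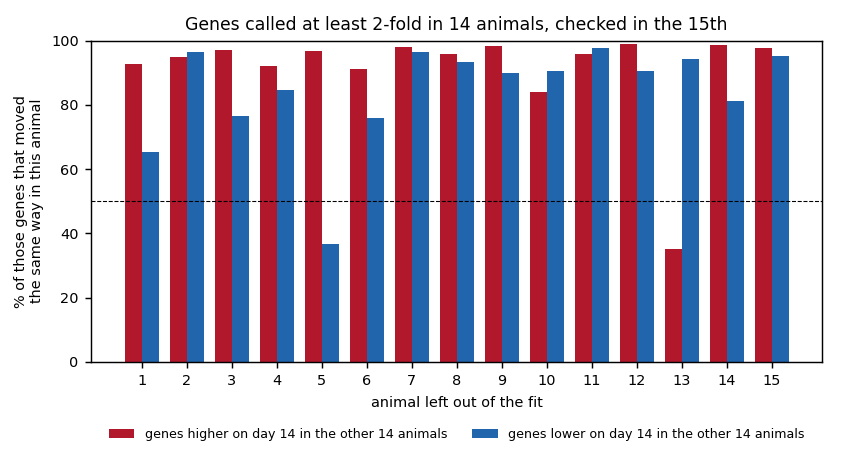
For each animal, bars give the percentage of genes called at least 2-fold in the other 14 animals that moved the same way in it, red for genes higher on day 14 and blue for genes lower on day 14, with a dashed line at 50%. Animal 13 stands out by its red bar of 35.1% and animal 5 by its blue bar of 36.6%.

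Whether the late change had been reached by day 3 was asked by setting both days beside day 0, which share the day 0 samples, and by testing day 14 against day 3 in the same animals. On day 3 vs. day 0, 3596 genes were called (19.2%), 2171 higher (11.6%) and 1425 lower (7.6%). On day 14 vs. day 3, 4782 were called (25.5%), 2740 higher (14.6%) and 2042 lower (10.9%). The largest changes were chosen by their day 14 values, which favours a further change from day 3 to day 14, and both days share the day 0 samples, so the counts that follow are a description. All 15 of the largest rises were called on day 3, with log2 fold changes between 0.99 and 2.46, and 9 of them were higher again on day 14. HEMGN went from 0.99 on day 3 to 2.87 on day 14, a difference of 1.88 ± 0.31, adjusted p = 0.00117. The rise of SPTB was 2.35 on day 3 and 2.82 on day 14, and the difference of 0.48 ± 0.40, adjusted p = 0.399 did not pass the threshold.

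Of the 15 largest falls 13 were called on day 3, and 5 were lower again on day 14. PROK2 had fallen by 2.13 on the log2 scale on day 3 and differed by −0.26 ± 0.19, adjusted p = 0.327 between the later days. MGAM was at −1.23 on day 3 and fell further (−0.72 ± 0.17, adjusted p = 0.00746), and DYSF, not called on day 3 at −0.81, differed by −0.98 ± 0.18, adjusted p = 0.00162. Of the 10 genes with the lowest p-values 6 were called on day 3, and 7 were higher and 1 lower on day 14 than on day 3. GZMA went from 0.97 to 2.33 (1.36 ± 0.17, adjusted p = 0.000792).

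IGJ was at 0.16 on day 3 (adjusted p = 0.553) and rose by 1.52 ± 0.24, adjusted p = 0.00116 from then to day 14, and TNFRSF17 rose by 1.25 ± 0.21, adjusted p = 0.00123 over the same interval. RPS24 was at 0.09 on day 3 and rose by 1.37 ± 0.22, adjusted p = 0.00116. The B cell factors PAX5 (−1.09 ± 0.17, adjusted p = 0.00112) and EBF1 (−0.82 ± 0.14, adjusted p = 0.00133) and FCRL1 (−0.93 ± 0.12, adjusted p = 0.000792), an Fc receptor homolog of B cells, fell between day 3 and day 14, after differences from day 0 of 0.18, −0.12 and 0.30 on day 3 that were not called. GZMB and GZMH, called on both days, were higher on day 14 than on day 3 by 0.73 and 0.83.

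**Figure D5:**
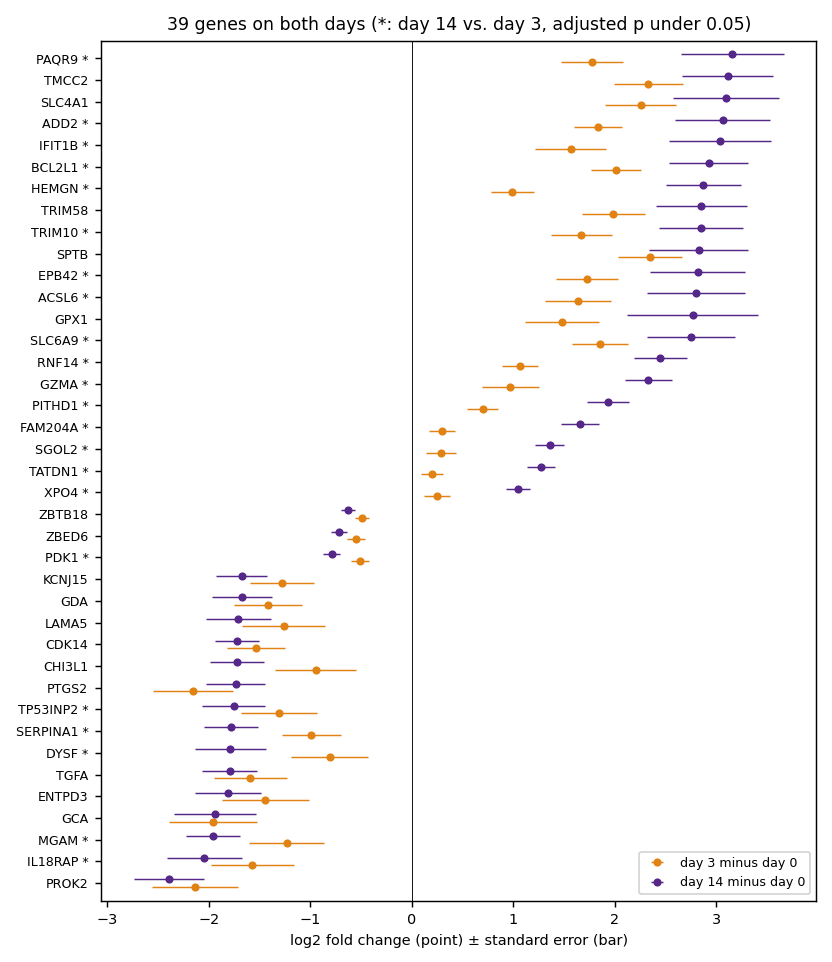
Of the 40 genes with the largest rises, the largest falls and the lowest p-values on day 14, 39 are shown with their log2 fold change from day 0 (point) and its standard error (bar), orange for day 3 and purple for day 14. Stars mark genes for which day 14 differed from day 3 at an adjusted p under 0.05, which were 22 of the 39.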

How the data were processed

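Blood was collected in PAXgene tubes, and stranded libraries depleted of ribosomal and globin RNA were sequenced as paired reads. Per the submitters' processing notes, the tools were bcl2fastq 2.17, STAR and HTSeq, and the reads were aligned to the vervet genome Chlorocebus_sabeus 1.1. The authors deposited 1 table of FPKM per sample, with 33994 genes. Each value was turned back into fragments by the gene length and library total that make it whole (within 0.02 fragments for 99.994% of the 1011768 values above 0). The library totals lay between 13216280 and 31469337 over the 45 libraries. FPKM were divided by TMM factors (trims of 30% and 5%), genes with more than 0.5 CPM in at least 3 samples were kept (18751), and log2(FPKM + 0.1), which understates the change of low genes, was fitted in limma 3.58.1 (R 4.3.3, with a trend on mean expression) with day and animal as terms.

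The labels give each animal's number, which pairs the samples. Deviations from the day means correlated on average by 0.243 within animals (−0.043 to 0.534) and by −0.017 between animals. On simulated data, limma recovered 100 of 100 genes changed 2-fold and 100 of 100 changed 4-fold among 18751 genes for day 14 vs. day 0. In that simulation few genes changed, all genes had the same dispersion, and each animal's effect was equal on both days. The real changes differed between animals, so this recovery does not measure the sensitivity reached in the real data.

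The genes named are the 15 largest rises, the 15 largest falls and the 10 lowest adjusted p-values among called genes with a symbol, a mean of at least 5 CPM and the same sign in at least 14 animals, plus cell type markers and members of 30 gene lists (the 4 with the lowest adjusted p, up to 2 against the majority, and any member where at most 30 were tested). The genes and lists were chosen with earlier results of these data known. Of 859 list entries 810 matched by symbol, 14 by NCBI gene ID (RefSeq, mChlSab1.0.hap1, names only) and 35 not at all. A symbol on 2 rows was left out. A few genes that the rule names are not reported here, and counts include them. Alternatives were no animal term, other scalings, pseudocounts and filters, all 45 samples, voom on the recovered fragments, RNA integrity as a covariate and leaving out each animal. After the data were seen, RNA integrity in all 45 samples and without the animal term, and leaving out animals 4 and 9, were added.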

Additional observations from a re-analysis of the deposited data

Results flagged for a closer look

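For 30 of the 47 genes in which it was examined, the difference from day 0 was not the same on day 14 as on day 3, by limma's test of day 14 against day 3 in the same animals with adjusted p under 0.05. Of all tested genes 4782 (25.5%) passed that test, and most of the 30 had been chosen for the size or p-value of their change on day 14, which favours such a difference. Among the largest rises, the values on day 14 minus those on day 3 (log2) were 1.38 for PAQR9, 1.23 for ADD2, 1.47 for IFIT1B, 0.91 for BCL2L1, 1.88 for HEMGN, 1.18 for TRIM10, 1.09 for EPB42, 1.16 for ACSL6 and 0.90 for SLC6A9. Among the largest falls they were −0.47 for IL18RAP, −0.72 for MGAM, −0.98 for DYSF, −0.79 for SERPINA1 and −0.45 for TP53INP2. Among the genes with the lowest p-values they were 1.36 for GZMA, 1.07 for SGOL2, 1.23 for PITHD1, 1.38 for RNF14, −0.28 for PDK1, 1.07 for TATDN1, 0.80 for XPO4 and 1.36 for FAM204A. Of the others, IGJ had 1.52, TNFRSF17 1.25, RPS24 1.37, GZMB 0.73 and GZMH 0.83, while FCRL1 had −0.93, EBF1 −0.82 and PAX5 −1.09. The groups of 15 samples were not searched for single outlying samples.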

How the results depend on the processing

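Leaving out the pairing by animal (no replicate block) gave 6624 called genes in place of 7541, 1630 at least 2-fold in place of 1662, and 20 of the 30 differences between day 14 and day 3. It moved the called count by over 1.5 times in 4 gene lists, to 4 for granules, 7 for monocytes, 7 for T cells and 6 for platelets. Called genes at least 2-fold numbered 1008 with a pseudocount of 1 and 1088 with a filter at a mean of 5 CPM. With RNA integrity as a covariate and the animal block, limma called 0 genes and 0 at least 2-fold in the 30 samples (3257 at an unadjusted p under 0.05). In alternatives chosen after seeing the data, RNA integrity in all 45 samples left 4145 genes and without the animal block 2274. Leaving out each animal in turn gave between 6883 (without animal 7) and 7625 (without animal 5) called genes, and between 1549 and 1799 at least 2-fold. Calls of named genes were lost without animal 2, 7 or 15 for ALAS1, animal 3, 11 or 13 for DNAJB1, animal 2, 7, 11 or 15 for PGLYRP1, animal 8 or 11 for SLC25A28, and in 8 of 15 such fits for FCRL1, 10 for EGR1 and 11 for CD44. The cause of these shifts was not tested. Of the 205 named genes called in the main comparison, 185 were called in the same direction without TMM and 204 with voom. With RNA integrity 0 were called with the animal block, 172 in all 45 samples and 108 without the block, and no named gene that was called turned its direction.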
